A study of Mus musculus with 14 samples.

Results

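The interaction of laparotomy with host genotype was measured in cancer cells sorted from mouse lung tumours. For each gene it is the laparotomy effect in PAD4 knockout (KO) hosts minus the laparotomy effect in wild-type (WT) hosts, on the log2 scale. A positive interaction means that the laparotomy effect was more positive in KO hosts, and 0 means that it was equal in both hosts. All 8 tumour libraries of the 14 in the series entered one fit of 4 groups, and all genes that passed a filter on low counts were tested, 14615 of 24411. The cells were MC-38, a mouse colon cancer line, carrying green fluorescent protein and collected by flow sorting on day 30. The 4 groups of 2 libraries were WT hosts with no treatment (WT control), WT hosts with laparotomy on days 0 and 10 (WT laparotomy), PAD4 KO hosts with no treatment (KO control), and PAD4 KO hosts with laparotomy on days 0 and 10 (KO laparotomy). The genotype entry of all 8 libraries reads WT, and only the titles and treatment entries give the knockout, which belongs to the host mice and not to the cancer cells. How the knockout was made, the strain and age of the mice, how tumours were started and whether controls had anaesthesia are not stated in the labels. Nothing in the labels ties the 2 libraries of a group to separate animals, so each p-value reflects only how far these samples scatter, which may be technical.

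PAD4 is an enzyme that turns arginine into citrulline in histones, which loosens chromatin. Neutrophils use it to release neutrophil extracellular traps (NETs), webs of DNA and granule proteins that are known to form after surgery and to hold circulating tumour cells. Hosts without PAD4 form few NETs, so a laparotomy effect on tumour cells that needs host NETs would differ between WT and KO hosts. That difference is what the interaction measures, and a gene can reach the same interaction through very different levels in the 4 groups.

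Gene counts summed to 10.8 to 31.3 M per tumour library. Replicates differed by more than counting noise in every group, and the WT laparotomy pair was the closest (r of log2 CPM 0.99, across genes, which are not independent replicates). WT control replicate 2 stood apart by markers of other cell types. Lung epithelium markers summed to 847 CPM there (CPM, counts per M reads of the library, scaled by TMM factors) and to 17.4 to 445 CPM in the other 7 libraries. Neutrophil markers summed to 599 CPM against 5.26 to 93.3 CPM. The deposited table names carry a sample-sheet index that is 4 for both WT control replicate 2 and WT laparotomy replicate 1 and 5 for both WT laparotomy replicate 2 and KO control replicate 1. No sequencing run or date is given, so a run and a group cannot be told apart. Defining epithelial genes were low, with Epcam at 0 to 1.88 CPM and Krt8 at 0.228 to 10.3 CPM in tumour libraries, and at 0.123 and 0.165 CPM on average in the control cultures of the same line. Collagen genes were far above culture: Col1a1 ran from 728 to 2601 CPM in tumour libraries and averaged 1.48 CPM in culture.

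The laparotomy effect differed between hosts for 99 genes (0.677% of those tested). Of these, 60 (0.411%) had a positive and 39 (0.267%) a negative interaction, and 2803 genes had an unadjusted p below 0.05 (1570 positive, 1233 negative). In 57 of the 60 positive genes the fitted WT effect was below 0 and the KO effect above 0, with median effects of -1.10 in WT and 1.41 in KO hosts. The exceptions were Ugt1a6a, Crip1 and Ereg. In all 39 negative genes the WT effect was above 0 and the KO effect below 0, with medians of 0.78 and -1.25. The median interaction was 2.72 (range 0.80 to 10.9) among the positive and -1.87 (range -11.6 to -0.84) among the negative genes. Over all genes tested the median was 0.03. Of all 14615, 7592 had a positive and 7023 a negative interaction, the shares to set beside the gene lists below.

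Seen as levels, WT controls and KO laparotomy lay on one side of WT laparotomy and KO controls in most of these genes. Groups on the same side often differed in level, as the counts of the group standing apart show below. In 91 of the 99 the 4 libraries of WT control and KO laparotomy lay all above or all below the other 4. Of all genes tested 9.71% held this pattern. The interaction sets the same 4 libraries against the other 4, so the higher share among the 99 largely restates their selection. The 8 genes without this pattern were Ugt1a6a, Ndufa4l2, Etv1, Crip1, Slitrk6, Rarg, Ereg and St3gal5. Few of the single contrasts behind the interaction passed. Laparotomy in WT hosts gave 8 genes (0.0547%), laparotomy in KO hosts 76 (0.520%), KO against WT without surgery 17 (0.116%) and KO against WT with laparotomy 3 (0.0205%). Of the 99 interaction genes, 5, 43, 14 and 3 also passed in these 4 contrasts in that order, and 48 passed in none of them. The counts of the single contrasts moved with single libraries and with the tool, and so did their order. Laparotomy in WT hosts gave 512 genes without WT control replicate 1, 31 without KO laparotomy replicate 1, 22 without KO laparotomy replicate 2 and 13 without WT control replicate 2. It gave 0 without either WT laparotomy library or either KO control (edgeR; 1074 to 3125 genes with an unadjusted p below 0.05) and 1226 in DESeq2. Laparotomy in KO hosts gave 202 and 195 genes without WT control replicate 2 and 1, 138 without KO control replicate 2, 17 and 11 without WT laparotomy replicate 1 and 2, 1 without KO laparotomy replicate 2, 0 without KO control replicate 1 (edgeR; 2014 with an unadjusted p below 0.05) and 793 in DESeq2. KO against WT without surgery gave 0 genes without either WT laparotomy library or KO control replicate 1 (edgeR; 1780 to 1863 with an unadjusted p below 0.05). It gave 46 to 218 without each of the others and 772 in DESeq2. KO against WT with laparotomy gave 112 and 121 genes without WT control replicate 1 and 2, 2 without either KO laparotomy library and 536 in DESeq2. It gave 0 without each of the remaining 4 libraries (edgeR; 762 to 2263 with an unadjusted p below 0.05).

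**Figure D1:**
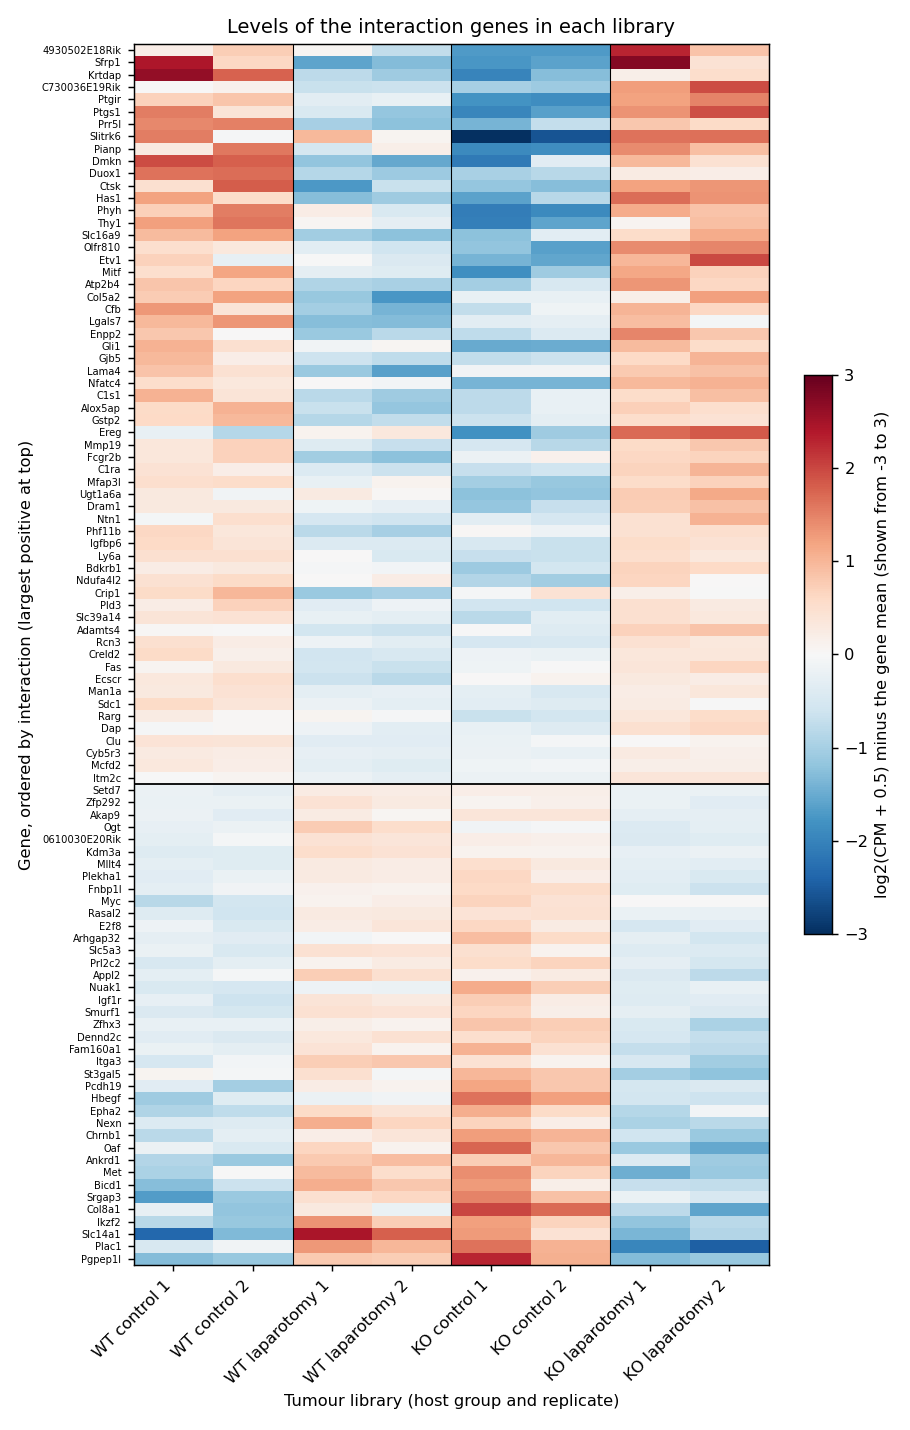
Levels of the 99 interaction genes (rows, ordered by interaction) in each of the 8 tumour libraries (columns), as log2(CPM + 0.5) minus the gene's mean, from -3 (blue) to 3 (red). Above the black line are the 60 positive genes, mostly red in WT control and KO laparotomy libraries; below it are the 39 negative genes, mostly blue there.

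The number of genes depended on single libraries. All 99 genes kept their sign under each of the 20 other settings run. They were selected for a large interaction in these same libraries, so the kept sign is no separate support. Without WT laparotomy replicate 1 only 1 gene passed, Lama4, and without WT laparotomy replicate 2 none did (edgeR; 1593 and 1716 genes with an unadjusted p below 0.05). Without KO control replicate 1 the count was 8, without KO laparotomy replicate 1 it was 53, without WT control replicate 1 it was 344, without WT control replicate 2 it was 165 and without KO control replicate 2 it was 279. The 99 genes also kept their sign without WT control replicate 2, the library with the highest lung epithelium, endothelial and leukocyte marker sums. The fibroblast and mural sum was highest in KO laparotomy replicate 2 instead (12384 CPM, against 5643 CPM in WT control replicate 2). With library totals in place of TMM factors 110 genes passed and the positive share was 53.6% instead of 60.6%.

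Which group stood farthest from the other 3 varied from gene to gene. Among the 60 positive genes KO control was the low group in 23, WT laparotomy the low group in 16, KO laparotomy the high group in 15 and WT control the high group in 6. Among the 39 negative genes KO control was the high group in 15, WT laparotomy the high group in 9, KO laparotomy the low group in 8 and WT control the low group in 7. In 82 of the 99 both libraries of that group lay outside the range of the other 6, as in 40.2% of all genes tested. The test favours genes with little scatter within groups, so this share too follows in part from the selection. By effect size, the KO effect was at least 2 times the WT effect in 31 genes, the WT effect at least 2 times the KO effect in 12, and 56 had opposite effects within that factor. Over all genes tested these counts were 4207, 4667 and 3153, and the remaining 2588 had effects of the same sign within that factor. Across all 14615 genes the WT and KO laparotomy effects had a correlation of 0.04, a description over genes that share the same 8 libraries.

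**Figure D2:**
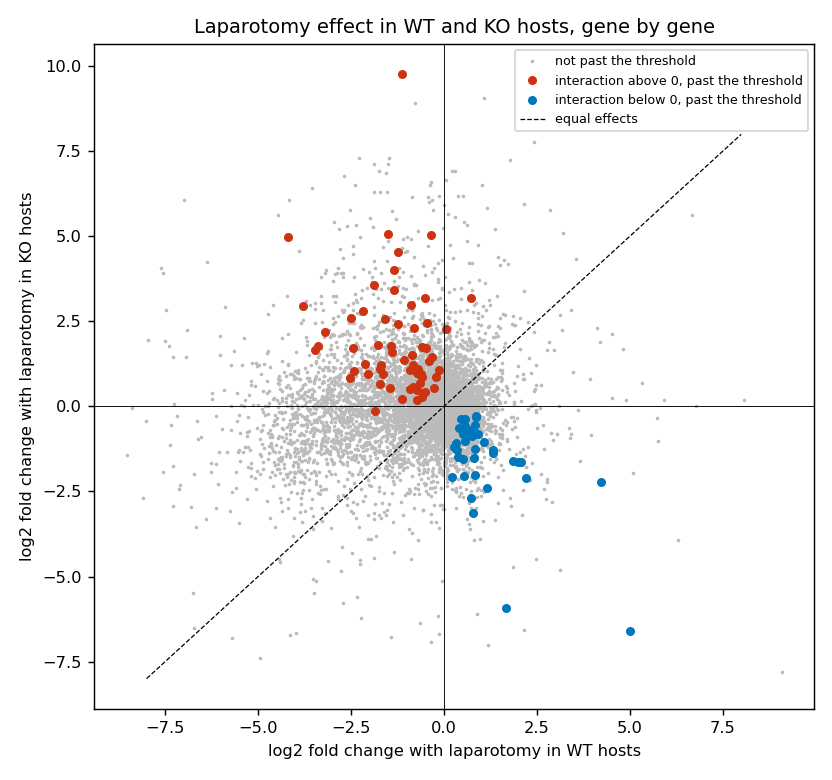
Laparotomy log2 fold change in KO hosts (vertical) against that in WT hosts (horizontal) for every gene tested; the dashed line marks equal effects. The 60 positive interaction genes (red) lie mainly at the upper left and the 39 negative genes (blue) at the lower right.

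Padi4 itself (GRCm38 chr4:140745865-140774236), which the cancer cells carry intact and which therefore does not check the host labels, had an interaction of -2.63 ± 0.73 (SE; adjusted p = 0.125) and was not called. It was made by the WT laparotomy group, with 30.7 and 30.3 CPM against 2.08 to 7.49 CPM in the other 6 libraries. WT laparotomy was also the highest group of the other tested deiminases. Padi3 was at 6.23 and 5.70 CPM in WT laparotomy and 0.274 to 1.56 CPM elsewhere (interaction -4.24 ± 0.87 (SE; adjusted p = 0.0718)), and Padi2, at 17.7 and 15.3 CPM in WT laparotomy and 1.34 to 8.90 CPM elsewhere, had an interaction of -2.02 ± 0.97 (SE; adjusted p = 0.3). None of the 3 passed in edgeR, where 2 had an unadjusted p below 0.05 (DESeq2 called 2 and limma voom 0). Control cultures held 67.2 CPM of Padi4.

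The named genes included transcription factors. Nfatc4 (chr14:55823144-55833943), a factor that calcineurin sends to the nucleus when calcium rises, stood at 34.2 and 29.5 CPM in WT controls, 23.6 and 22.4 in WT laparotomy, 8.62 and 8.60 in KO controls and 46.4 and 48.9 in KO laparotomy. Its KO controls were the lowest libraries and its KO laparotomy libraries the highest, with no overlap between any of the groups. The interaction was 2.93 ± 0.20 (SE; adjusted p = 0.00631), made by a KO effect of 2.47 ± 0.15 (SE; adjusted p = 0.00212) and a WT effect of -0.47 ± 0.14 (SE; adjusted p = 0.163). Gli1 (chr10:127329882-127341974), the factor and target gene of the hedgehog pathway, stood at 76.5 and 51.6 CPM in WT controls, 34.5 and 38.6 in WT laparotomy, 12.6 and 12.9 in KO controls and 71.6 and 54.7 in KO laparotomy. Its KO controls were lowest and its WT laparotomy libraries next, and its interaction was 3.11 ± 0.30 (SE; adjusted p = 0.0134). Of 12 tested hedgehog pathway genes Gli1 was the single one that passed. The list's median interaction was 0.26 (-0.02 without KO laparotomy replicate 1, 0.29 without KO control replicate 1 and 0.34 with the strand-specific count column). Mitf, a factor of lysosome and pigment genes, stood at 29 and 46.2 CPM in WT controls, 16.6 and 15.5 in WT laparotomy, 5.24 and 9.43 in KO controls and 45.7 and 32.6 in KO laparotomy, with an interaction of 3.65.

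Myc, Ikzf2 and Zfhx3 went the other way. Myc (chr15:61985391-61990374), a factor that drives genes of cell growth, stood at 85.8 and 104 CPM in WT controls, 164 and 176 in WT laparotomy, 241 and 207 in KO controls and 154 and 151 in KO laparotomy. Its WT controls were below the other 6 libraries and its KO controls above them, and the interaction was -1.40 ± 0.18 (SE; adjusted p = 0.021). It was the only 1 of 18 tested immediate early genes to pass, and the median of that list was 0.39 (-0.06 without WT control replicate 2). Ikzf2 (Helios), a zinc finger factor known from lymphocytes, stood at 3.75 and 2.90 CPM in WT controls, 18.5 and 12 in WT laparotomy, 17 and 11.4 in KO controls and 2.82 and 3.78 in KO laparotomy. Its interaction was -4.31 ± 0.51 (SE; adjusted p = 0.0201), from effects of nearly equal size and opposite sign (2.21 in WT and -2.10 in KO hosts). Control cultures held 20.5 CPM of Ikzf2. Zfhx3, a large homeobox factor, stood at 31.2 and 31 CPM in WT controls, 41.2 and 39.3 in WT laparotomy, 65.6 and 61.6 in KO controls and 26.4 and 18.6 in KO laparotomy (interaction -1.87).

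Growth factors and their receptors fell on both sides. Hbegf (chr18:36504927-36515805), a ligand of the epidermal growth factor receptor, stood at 15.9 and 26 CPM in WT controls, 29.9 and 31.4 in WT laparotomy, 106 and 79.2 in KO controls and 22.8 and 21.7 in KO laparotomy. The KO controls alone were high, with no other library near them, and the interaction was -2.59 ± 0.33 (SE; adjusted p = 0.021). Ereg (chr5:91074622-91093646), another ligand of that receptor, stood at 93.7 and 60.4 CPM in WT controls, 118 and 138 in WT laparotomy, 30.8 and 51.9 in KO controls and 355 and 392 in KO laparotomy. Both KO laparotomy libraries were far above the other 6, and the KO effect was 3.18 ± 0.30 (SE; adjusted p = 0.0198). In WT hosts the Ereg effect had the same sign (0.74), so that its interaction of 2.44 ± 0.39 (SE; adjusted p = 0.0497) is a larger effect in KO hosts and not an opposed one. These were the only 2 of 11 tested genes of that ligand and receptor family that passed (0.677% of all genes tested did). The list was added after its values were seen. The list median was -0.54 (-0.62 without WT control replicate 2 and -0.13 without KO control replicate 1). Over all settings it ran from -0.84, without both control replicates numbered 2, to -0.05, with the lung epithelium marker level added to the fit.

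Among 43 tested receptor tyrosine kinases 3 passed, all negative (0.677% of all genes tested passed). Of the 43, 30 had a positive interaction, against 7592 of all 14615 genes tested. This list was added after its values were seen, and its median was 0.85 (1.5 without WT laparotomy replicate 2). Met (chr6:17463800-17573980), the receptor of hepatocyte growth factor, stood at 22.8 and 44.2 CPM in WT controls, 87.1 and 64 in WT laparotomy, 118 and 71.2 in KO controls and 15.9 and 20.2 in KO laparotomy, an interaction of -3.55 ± 0.52 (SE; adjusted p = 0.0392). Its 2 KO laparotomy libraries were the lowest of the 8. Epha2, an ephrin receptor, stood at 18.1 and 20.2 CPM in WT controls, 51.6 and 45.2 in WT laparotomy, 73.4 and 51.6 in KO controls and 18.7 and 32.4 in KO laparotomy (interaction -2.62). Igf1r, the receptor of insulin-like growth factors, stood at 57.4 and 44.1 CPM in WT controls, 89 and 82.7 in WT laparotomy, 115 and 79.9 in KO controls and 52.7 and 53.6 in KO laparotomy (interaction -1.64). Axl, a further receptor of this class, had an interaction of -1.24 ± 0.22 (SE; adjusted p = 0.0545) and did not pass. Igfbp6 (chr15:102144362-102149511), a secreted binder of insulin-like growth factors, went opposite to Igf1r. It stood at 167 and 144 CPM in WT controls, 82.1 and 82.3 in WT laparotomy, 79.1 and 69.4 in KO controls and 163 and 149 in KO laparotomy. Its WT laparotomy and KO control libraries were at about one level and the other 4 at about another, and the interaction was 1.99 ± 0.17 (SE; adjusted p = 0.0123). Ntn1, a netrin, stood at 44.5 and 66.6 CPM in WT controls, 32.5 and 30.6 in WT laparotomy, 36.9 and 32.3 in KO controls and 63.5 and 96.4 in KO laparotomy (interaction 2.03, adjusted p = 0.0499).

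**Figure D3:**
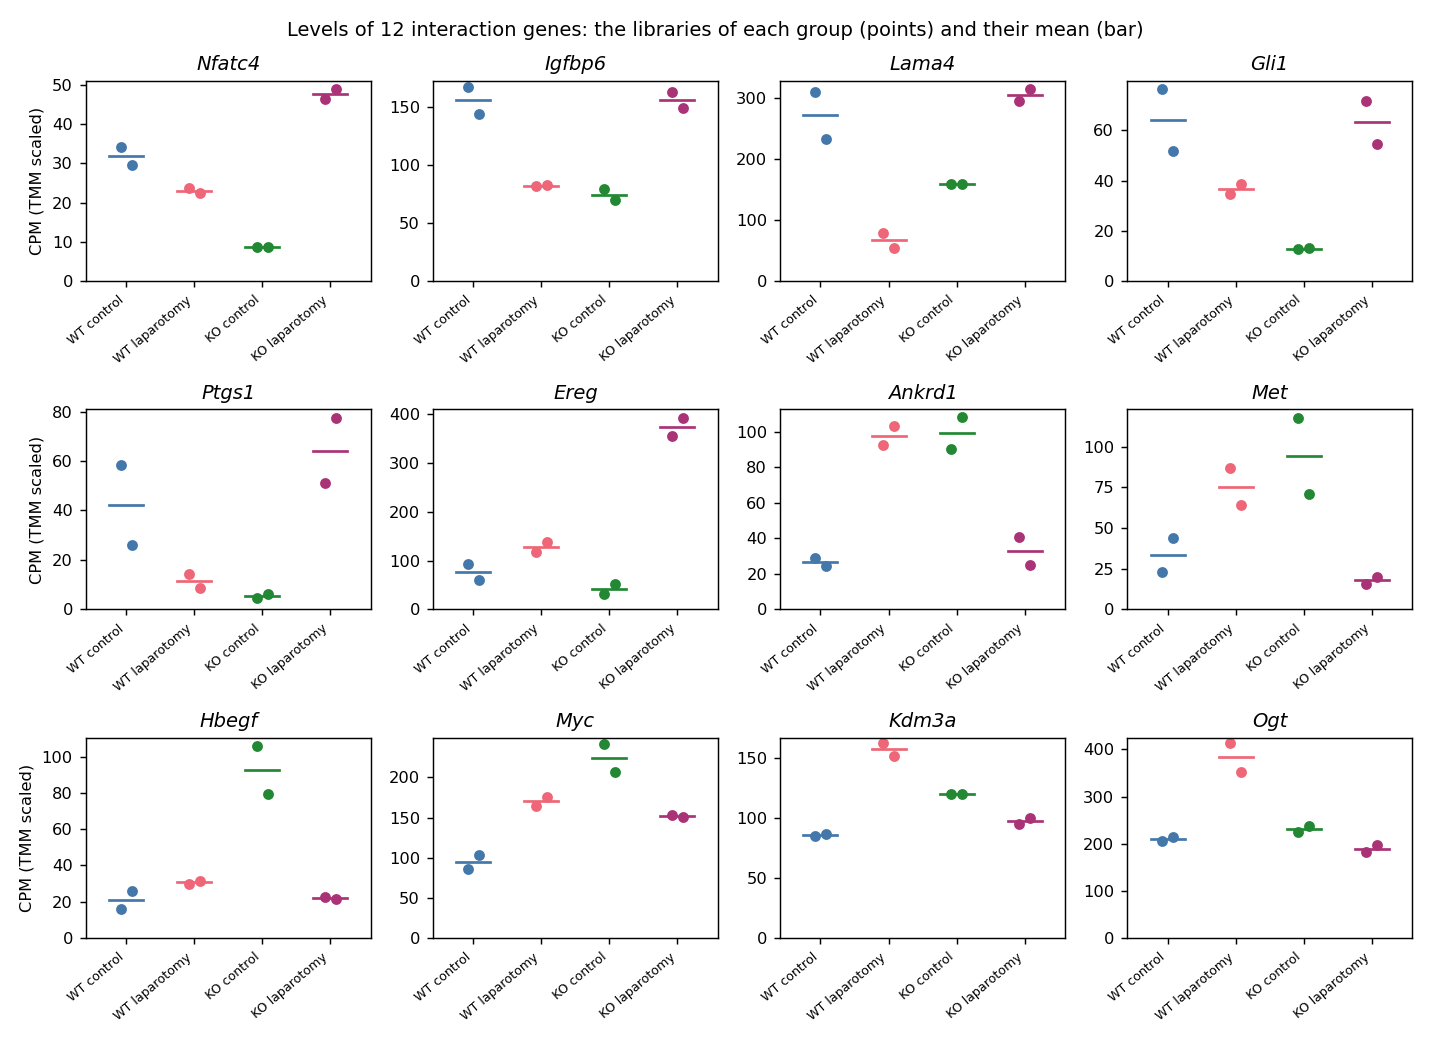
Levels (CPM, linear axes from 0) of 12 interaction genes in the 4 groups; points are libraries and bars are group means. Nfatc4, Igfbp6, Lama4, Gli1 and Ptgs1 are high in WT control and KO laparotomy, Ereg is high in KO laparotomy alone, Hbegf in KO control alone, and Kdm3a and Ogt in WT laparotomy.

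Several of the named negative genes encode proteins of the cytoskeleton and of cell junctions. Ankrd1 (chr19:36111961-36120099), an ankyrin repeat protein known as a target of the YAP and TEAD factors that respond to cell tension, stood at 29.1 and 24.6 CPM in WT controls, 92.3 and 103 in WT laparotomy, 90.1 and 108 in KO controls and 40.6 and 25.2 in KO laparotomy. All 4 libraries of WT laparotomy and KO control were far above each of the other 4, and the interaction was -3.46 ± 0.32 (SE; adjusted p = 0.0123). Its promoter is printed because TEAD factors bind the M-CAT element CATTCC, a motif chosen after the values were seen and searched on both strands. The 250 bases before its RefSeq start hold it on the opposite strand, in capitals, with first bases at -210 and -123 from the start (GRCm38.p6 chr19:36119845-36120094, minus strand). The gene position given above is from GENCODE, whose start lies farther upstream, so by that position the window is inside the gene.
Ankrd1 promoter: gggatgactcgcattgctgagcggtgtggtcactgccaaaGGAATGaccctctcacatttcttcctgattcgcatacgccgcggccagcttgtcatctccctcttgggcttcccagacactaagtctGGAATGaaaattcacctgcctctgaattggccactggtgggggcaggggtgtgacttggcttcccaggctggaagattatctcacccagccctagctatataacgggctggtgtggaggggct
The element was in 14.4% of 27025 genes' promoter windows and 13.1% of those of genes tested, in 4 of the 32 negative interaction genes with a window (Ankrd1, Bicd1, Chrnb1 and Epha2) and in 5 of the 39 positive genes with one. Those shares, 12.5% and 12.8%, were close to that of all genes. Ankrd1 was also the only 1 of 22 tested YAP and TEAD target genes that passed. The list's median was -0.25 (-0.47 without KO laparotomy replicate 2 and -0.12 without KO control replicate 1). With the lung epithelium marker level added to the fit it was 0.01.

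Nexn, an actin-binding protein, stood at 12.2 and 12.5 CPM in WT controls, 35.4 and 25.9 in WT laparotomy, 26.4 and 18.9 in KO controls and 8.27 and 9.17 in KO laparotomy, and its interaction was -2.68 ± 0.33 (SE; adjusted p = 0.0201). Mllt4, which encodes the junction protein afadin, stood at 109 and 104 CPM in WT controls, 161 and 156 in WT laparotomy, 189 and 164 in KO controls and 108 and 107 in KO laparotomy (interaction -1.28). Fnbp1l, a membrane-bending protein of actin assembly, stood at 91.6 and 105 CPM in WT controls, 124 and 122 in WT laparotomy, 171 and 166 in KO controls and 88.1 and 71.9 in KO laparotomy (interaction -1.39). In these 3 genes the libraries of WT control and KO laparotomy were all below those of the other groups. Srgap3 had an interaction of -3.71, with 1.92 and 3.07 CPM in WT controls and 5.06 to 21.0 CPM in the other 6 libraries. Rasal2, which promotes GTP hydrolysis by Ras, had an interaction of -1.45, and Smurf1, a ubiquitin ligase of the bone morphogenetic protein pathway, one of -1.71. Itga3, the integrin chain of laminin receptors, stood at 13.4 and 18.2 CPM in WT controls, 32.6 and 34.3 in WT laparotomy, 26.3 and 20.9 in KO controls and 13.7 and 9.17 in KO laparotomy (interaction -2.11).

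Most of the named matrix and stromal genes that passed were positive, and several of them were named after their values were seen. Of 12 fibroblast and mural markers 0 passed in edgeR and 9 were positive (5 had an unadjusted p below 0.05, and DESeq2 called 4). These markers summed to 6676 and 5643 CPM in WT controls and 5226 and 3834 in WT laparotomy. In KO controls they summed to 10111 and 5760 CPM and in KO laparotomy to 6931 and 12384. Lama4 (chr10:38965515-39110188), a laminin chain of vessel and muscle basement membranes, stood at 309 and 233 CPM in WT controls, 78 and 54.5 in WT laparotomy, 158 and 159 in KO controls and 295 and 314 in KO laparotomy. The WT laparotomy libraries were the low ones, and the WT effect passed (-2.03 ± 0.19 (SE; adjusted p = 0.0317)). Its interaction was 2.97 ± 0.27 (SE; adjusted p = 0.0123). Has1 (chr17:17843323-17855205), a hyaluronan synthase, stood at 25.6 and 16.1 CPM in WT controls, 4.23 and 4.98 in WT laparotomy, 3.23 and 5.89 in KO controls and 35.6 and 28.7 in KO laparotomy, which gave opposed effects of -2.17 and 2.82 and an interaction of 4.99 ± 0.49 (SE; adjusted p = 0.0134). Mmp19, a matrix metalloproteinase, stood at 56.1 and 71.5 CPM in WT controls, 33.8 and 27 in WT laparotomy, 30.7 and 24.6 in KO controls and 65.5 and 76.9 in KO laparotomy (interaction 2.44). These genes were near 0 in control cultures: Lama4 at 0.0357 CPM, Has1 at 0.320 CPM and Mmp19 at 0.562 CPM.

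Ctsk, cathepsin K, which cleaves collagen, stood at 20.4 and 51.6 CPM in WT controls, 3.97 and 8.82 in WT laparotomy, 6.11 and 5.62 in KO controls and 34.1 and 36.9 in KO laparotomy (interaction 5.09). Col5a2, a chain of collagen V, stood at 237 and 322 CPM in WT controls, 63.4 and 41.1 in WT laparotomy, 119 and 119 in KO controls and 159 and 327 in KO laparotomy (interaction 3.45). Thy1, a surface protein of fibroblasts and T cells, stood at 21.6 and 27.9 CPM in WT controls, 9.33 and 7.31 in WT laparotomy, 1.79 and 2.64 in KO controls and 9.41 and 17.2 in KO laparotomy (interaction 4.16). In all 3 the libraries of WT control and KO laparotomy were above the other 4, and all 3 were under 0.5 CPM in every culture library. Sfrp1, a secreted Wnt antagonist, stood at 13.3 and 3.43 CPM in WT controls, 0.349 and 0.535 in WT laparotomy, 0.266 and 0.340 in KO controls and 16.6 and 2.97 in KO laparotomy. Its 4 low libraries were between 0.266 and 0.535 CPM, and the fitted interaction of 9.19 rests on those few reads. Col8a1, a chain of collagen VIII, was the exception, with an interaction of -3.93 made by KO controls at 35.6 and 28.6 CPM against 2.49 to 10.6 CPM elsewhere. Over 23 tested mesenchymal and matrix genes 0 passed in edgeR (8 had an unadjusted p below 0.05; DESeq2 called 6 and limma voom 0), and the median interaction was 0.46.

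The complement genes that passed were all positive, as were the receptors Fcgr2b and Fas. C1ra (chr6:124512405-124523443) and C1s1 (chr6:124530345-124542359), neighbouring genes for the proteases of the first complement component, are expressed by the cultured line (51.1 and 99.3 CPM). Control cultures held 11.6 CPM of Fas, and only 1.44 CPM of Cfb and 0.184 CPM of Fcgr2b. C1ra stood at 58.8 and 50.2 CPM in WT controls, 32.6 and 27.8 in WT laparotomy, 27 and 28.8 in KO controls and 69.8 and 89.3 in KO laparotomy, an interaction of 2.36 ± 0.23 (SE; adjusted p = 0.0134). C1s1 stood at 134 and 84.4 CPM in WT controls, 37 and 30.5 in WT laparotomy, 37.2 and 55.9 in KO controls and 95.6 and 122 in KO laparotomy, an interaction of 2.92 ± 0.39 (SE; adjusted p = 0.0277). Cfb, factor B of the alternative pathway, stood at 233 and 123 CPM in WT controls, 46.2 and 35.4 in WT laparotomy, 56.1 and 85.8 in KO controls and 192 and 145 in KO laparotomy (interaction 3.37). In all 3 genes WT laparotomy and KO control libraries were the low 4. They were the 3 of 20 tested complement genes that passed (0.677% of all genes tested did). Of the 20, 19 had a positive interaction, against 7592 of all 14615 genes tested. The list was added after its values were seen, so neither share is support for a response of complement genes. The list's median was 2.34, or 1.37 without KO laparotomy replicate 1. Fcgr2b (chr1:170958617-170976547), the inhibitory Fc receptor, stood at 33.5 and 42.9 CPM in WT controls, 12.4 and 10.9 in WT laparotomy, 23.2 and 28.8 in KO controls and 40.3 and 42 in KO laparotomy, low in WT laparotomy (WT effect -1.72 ± 0.18 (SE; adjusted p = 0.0317)) with an interaction of 2.38 ± 0.25 (SE; adjusted p = 0.0191). Fas, the death receptor, stood at 32.5 and 38.3 CPM in WT controls, 20.9 and 19.2 in WT laparotomy, 28.3 and 30.6 in KO controls and 39.8 and 48.2 in KO laparotomy (interaction 1.40), and was 1 of 14 tested p53 targets that passed (list median 0.33, or 0.08 without WT control replicate 2).

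Monocyte and macrophage markers had levels in an order like that of the positive genes. They summed to 439.9 and 1886 CPM in WT controls, 145 and 128 in WT laparotomy, 149 and 377 in KO controls and 543 and 367 in KO laparotomy. Pan-leukocyte markers summed to 134 and 955 CPM in WT controls, 95.1 and 65.2 in WT laparotomy, 98.3 and 164 in KO controls and 140.1 and 95 in KO laparotomy. Both were lowest or nearly so in WT laparotomy, and the macrophage sums of KO controls and KO laparotomy overlapped. Their part in the interaction of the positive genes was not tested beyond the fits with a marker level. Of 17 tested monocyte and macrophage markers all had a positive interaction (median 2.96), against 7592 of all 14615 genes tested. In edgeR 0 of the 17 passed and 15 had an unadjusted p below 0.05. DESeq2 called 11 and limma voom 0. Adding the pan-leukocyte level of each library to the fit left 32 genes past the threshold, 22 of them among the 99. In bulk libraries fewer cells of a type and less RNA per cell cannot be told apart.

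Lung epithelium markers summed to 151 and 847 CPM in WT controls, 17.4 and 27 in WT laparotomy, 46.4 and 445 in KO controls and 106 and 98.4 in KO laparotomy. Of 13 tested markers all were positive (median 3.80, or 2.19 without WT control replicate 2), against 7592 of all 14615 genes tested. In edgeR 0 of the 13 passed and 7 had an unadjusted p below 0.05. DESeq2 called 4 and limma voom 0. With the lung epithelium level in the fit only Nfatc4, Igfbp6 and Olfr810 passed. Endothelial markers summed to 298 and 828 CPM in WT controls, 180.1 and 165 in WT laparotomy, 231 and 494 in KO controls and 232 and 213 in KO laparotomy. Their median interaction over 12 was 2.44, or 1.02 without WT control replicate 2 and -0.87 with the lung epithelium level in the fit. One of them passed, Ecscr, an endothelial surface protein, at 80.9 and 91 CPM in WT controls, 41.3 and 36.8 in WT laparotomy, 64.7 and 69.1 in KO controls and 79.1 and 75.3 in KO laparotomy (interaction 1.35). Neutrophil markers had a median of 5.39 over 9 tested (3.38 without WT control replicate 2). The neutrophil marker Stfa2 was at 0 in all 8 libraries, as were 4 hemoglobin genes of the erythroid list. KO control replicate 2 had the second highest lung epithelium, neutrophil and endothelial sums of the 8 libraries. It was the highest library of 0 of the 60 positive genes and the lowest of 13. A positive interaction selects genes that are low in KO controls and WT laparotomy, so these counts say nothing about other cells.

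**Figure D4:**
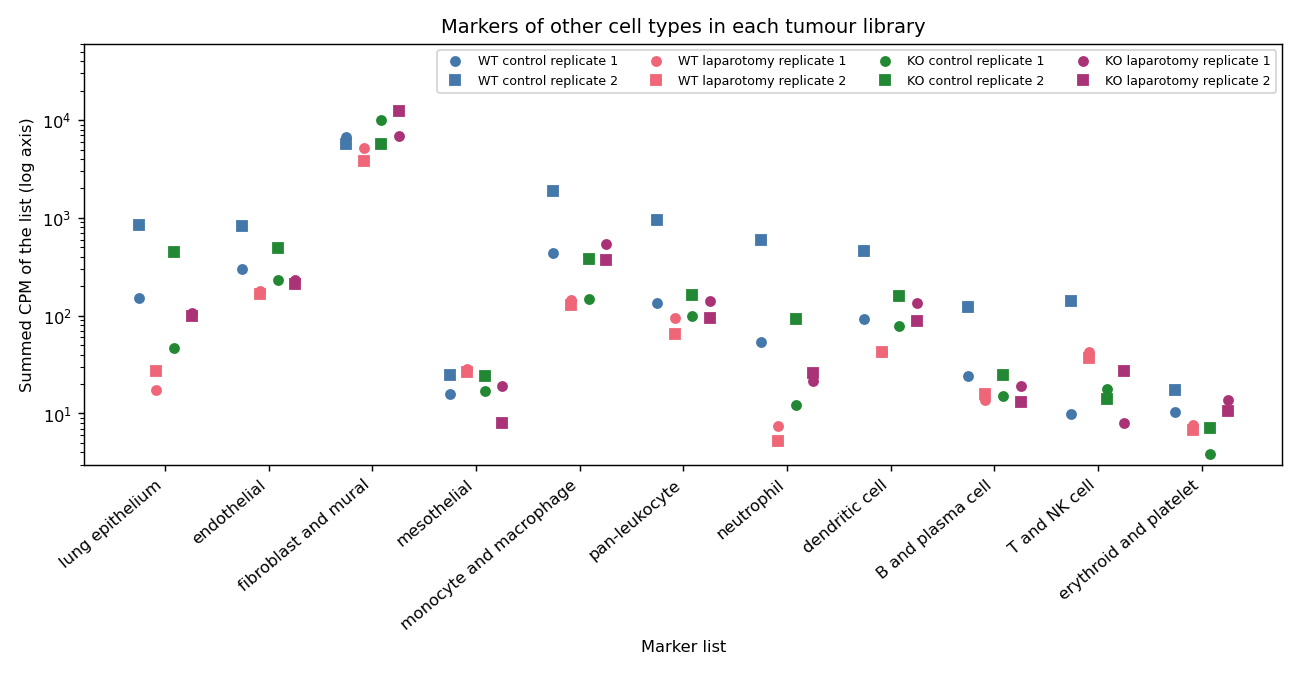
Summed CPM (log axis) of each list of markers of other cell types, with one point per tumour library (circles replicate 1, squares replicate 2). WT control replicate 2 is highest for lung epithelium, endothelial, macrophage, pan-leukocyte and neutrophil markers, and the WT laparotomy libraries are lowest for lung epithelium and neutrophil markers.

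Lipid genes bear on the question in the series title, which links surgery, NETs and lipid metabolism. Of 17 tested genes of eicosanoid synthesis 2 passed, both positive (0.677% of all genes tested passed). Of the 17, 13 were positive (7592 of all 14615 genes tested), with a median of 1.81, or 0.92 without WT control replicate 2. Ptgs1 (chr2:36230426-36252272), the constitutive cyclooxygenase that starts prostaglandin synthesis, stood at 58.6 and 26.1 CPM in WT controls, 14.3 and 8.60 in WT laparotomy, 4.75 and 6.08 in KO controls and 51.2 and 77.2 in KO laparotomy. The KO controls were lowest, every library of WT control and KO laparotomy was above the other 4, and the interaction was 5.45 ± 0.63 (SE; adjusted p = 0.021). Alox5ap (chr5:149264767-149288153), the helper protein of leukotriene synthesis, stood at 122 and 168 CPM in WT controls, 51.3 and 36.2 in WT laparotomy, 46.8 and 69.8 in KO controls and 133 and 116 in KO laparotomy, an interaction of 2.83 ± 0.36 (SE; adjusted p = 0.021). Ptgs2, the inducible cyclooxygenase, did not pass the interaction test (1.90 ± 0.53 (SE; adjusted p = 0.14)). Its effects had the same sign in both hosts, 1.06 in WT and 2.95 ± 0.40 (SE; adjusted p = 0.0431) in KO hosts. The prostacyclin receptor gene Ptgir, at 4.02 and 4.49 CPM in WT controls, 1.74 and 1.89 in WT laparotomy, 0.304 and 0.264 in KO controls and 5.98 and 7.35 in KO laparotomy, passed with an interaction of 5.75 ± 0.63 (SE; adjusted p = 0.0197) and was the only 1 of 8 tested prostanoid and leukotriene receptor genes to do so.

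Single lipid enzymes outside that pathway passed as well. Control cultures held 79.2 CPM of Enpp2 and 16.4 CPM of St3gal5, but only 0.113 CPM of Phyh. Enpp2, autotaxin, the secreted enzyme that makes lysophosphatidic acid, stood at 129 and 74.5 CPM in WT controls, 33.8 and 42 in WT laparotomy, 43 and 55.2 in KO controls and 204 and 130.2 in KO laparotomy (interaction 3.18, adjusted p = 0.0329). Phyh (chr2:4919019-4938730), a peroxisomal enzyme that breaks down branched fatty acids, stood at 10.5 and 19 CPM in WT controls, 7.32 and 4.35 in WT laparotomy, 1.10 and 1.28 in KO controls and 13.9 and 11.6 in KO laparotomy, with the KO controls lowest and an interaction of 4.76 ± 0.57 (SE; adjusted p = 0.0201). St3gal5, which makes the ganglioside precursor GM3, stood at 16.8 and 15.3 CPM in WT controls, 22.5 and 15.2 in WT laparotomy, 32.3 and 28.1 in KO controls and 7.66 and 6.61 in KO laparotomy. It was highest in KO controls and lowest in KO laparotomy, with no such spread in WT hosts (KO effect -2.08 ± 0.23 (SE; adjusted p = 0.0211), interaction -2.31).

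The larger lipid pathways had no gene past the interaction test. In cholesterol synthesis 0 of 24 passed in edgeR (7 had an unadjusted p below 0.05; DESeq2 called 4). The median interaction was 0.37 (0.12 without KO laparotomy replicate 2), and 19 were positive (7592 of all 14615 genes tested). Both laparotomy libraries were above both controls in 12 of the 24 genes in WT hosts (29.2% of all genes tested) and in 19 of the 24 in KO hosts (21.6% of all). Mvd, which makes isopentenyl diphosphate, had a KO effect of 1.13 ± 0.17 (SE; adjusted p = 0.0377) and an interaction of 1.00 ± 0.24 (SE; adjusted p = 0.0986). In edgeR 0 of 24 genes of fatty acid synthesis passed (median 0.10; 7 with an unadjusted p below 0.05, 5 in DESeq2) and 0 of 24 of fatty acid oxidation (median 0.01; 4 and 1). For fatty acid uptake and lipid droplets it was 0 of 22 (5 unadjusted, 3 in DESeq2), with a median of 0.85 that was 0.07 without WT control replicate 2. For sterol efflux it was 0 of 7 (2 unadjusted, 1 in DESeq2; median 1.26, or 0.58 without WT control replicate 2). No gene of these 5 lists passed in limma voom. Scd1, the desaturase that makes oleate, came closest in fatty acid synthesis (185 and 188 CPM in WT controls, 166 and 174 in WT laparotomy, 132 and 146 in KO controls and 232 and 205 in KO laparotomy, interaction 0.79 ± 0.15 (SE; adjusted p = 0.0659)).

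Hypoxia genes leaned negative. Of 18 tested, 14 had a negative interaction (7023 of all 14615 genes tested) and 1 passed (0.677% of all). The median was -0.50, and it was -0.16 without KO laparotomy replicate 1, -0.32 without KO control replicate 1 and -0.82 without KO laparotomy replicate 2. Kdm3a (chr6:71588972-71632990), a histone demethylase induced by low oxygen, stood at 85.2 and 86.3 CPM in WT controls, 163 and 152 in WT laparotomy, 120.1 and 119.9 in KO controls and 94.6 and 99.6 in KO laparotomy. The WT laparotomy libraries were highest, and the WT effect passed (0.87 ± 0.10 (SE; adjusted p = 0.0317)), for an interaction of -1.18 ± 0.14 (SE; adjusted p = 0.0201). Hk2, the hexokinase of rapid glycolysis, stood at 136 and 138 CPM in WT controls, 245 and 241 in WT laparotomy, 217 and 191 in KO controls and 186 and 206 in KO laparotomy and missed the threshold (-0.88 ± 0.15 (SE; adjusted p = 0.0507)). Ero1l, the oxidase of protein folding, stood at 229 and 203 CPM in WT controls, 553 and 449 in WT laparotomy, 218 and 225 in KO controls and 240.5 and 273 in KO laparotomy and missed it as well (-1.0 ± 0.19 (SE; adjusted p = 0.0617)). Both WT laparotomy libraries were above both WT controls in 15 of the 18 genes (29.2% of all genes tested), and both KO laparotomy libraries above both KO controls in 10 (21.6% of all). Glycolysis genes did not lean negative in the interaction (8 of 18 negative, median 0.08). In edgeR, DESeq2 and limma voom 0 of the 18 passed, and 2 had an unadjusted p below 0.05 in edgeR. Both laparotomy libraries were above both controls in 11 of these 18 in WT hosts and in 8 in KO hosts.

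The core of the hypoxia response element, ACGTG, was searched on both strands of the 250 bases before the RefSeq starts. It was in 12 of the 15 hypoxia genes with a window, in 24.2% of the genes tested that have one (18.5% of all genes' windows), in 10 of 39 positive interaction genes (25.6%) and in 4 of 32 negative ones (12.5%). The Hk2 window (GRCm38.p6 chr6:82774455-82774704, minus strand) is shown as one that holds the core at 2 places, -226 and -52 from the start, in capitals.
Hk2 promoter: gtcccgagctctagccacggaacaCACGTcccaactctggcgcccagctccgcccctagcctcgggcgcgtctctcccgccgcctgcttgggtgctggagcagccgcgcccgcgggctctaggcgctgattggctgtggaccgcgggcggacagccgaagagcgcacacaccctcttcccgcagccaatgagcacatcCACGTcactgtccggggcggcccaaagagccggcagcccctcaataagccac
None of the 3 windows of Kdm3a held these letters. A match is a description of letters and not of binding.

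In several genes WT laparotomy was the group that stood apart. Ogt, which adds the sugar N-acetylglucosamine to proteins, stood at 205 and 215 CPM in WT controls, 413 and 353 in WT laparotomy, 225 and 238 in KO controls and 182 and 197 in KO laparotomy, high in WT laparotomy with an interaction of -1.16 ± 0.16 (SE; adjusted p = 0.0277). Crip1, a small LIM domain protein at 0.0515 CPM in control cultures, stood at 91.5 and 123 CPM in WT controls, 28.2 and 30.8 in WT laparotomy, 60.2 and 84.3 in KO controls and 69.7 and 61 in KO laparotomy. It was low in WT laparotomy (WT effect -1.86 ± 0.20 (SE; adjusted p = 0.0317)) and nearly level in KO hosts (-0.14), for an interaction of 1.72. Creld2, a protein of endoplasmic reticulum stress, stood at 173 and 129.7 CPM in WT controls, 77.9 and 82.5 in WT laparotomy, 104 and 101 in KO controls and 147 and 148 in KO laparotomy (interaction 1.44), the 1 of 22 tested unfolded protein and integrated stress genes that passed (list median 0.43). Gstp2, a glutathione transferase, stood at 21.6 and 28.2 CPM in WT controls, 7.63 and 8.28 in WT laparotomy, 8.85 and 11.5 in KO controls and 20.5 and 19.3 in KO laparotomy (interaction 2.61). Slc14a1, a urea transporter, stood at 0.731 and 2.04 CPM in WT controls, 33.9 and 21.4 in WT laparotomy, 14.7 and 8 in KO controls and 1.95 and 2.97 in KO laparotomy. Its interaction, -6.42 ± 0.75 (SE; adjusted p = 0.0201), was the most negative of the named genes that passed, with low levels in the 4 libraries of WT control and KO laparotomy.

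Others were made mainly by KO hosts. Dram1, a lysosomal protein of autophagy, stood at 68.2 and 67.4 CPM in WT controls, 50.9 and 46.6 in WT laparotomy, 24.7 and 34.3 in KO controls and 93.3 and 101 in KO laparotomy, with a KO effect of 1.72 ± 0.16 (SE; adjusted p = 0.0162) and an interaction of 2.20 ± 0.23 (SE; adjusted p = 0.0173). Mfap3l stood at 22.2 and 22.9 CPM in WT controls, 13.1 and 16.8 in WT laparotomy, 7.33 and 6.83 in KO controls and 22.8 and 25.2 in KO laparotomy (interaction 2.35), low in KO controls. Olfr810, named as an olfactory receptor gene and at 0 in control cultures, stood at 15.6 and 13.7 CPM in WT controls, 8.67 and 7.06 in WT laparotomy, 4.56 and 3.21 in KO controls and 29.9 and 31.1 in KO laparotomy (interaction 3.87 ± 0.34 (SE; adjusted p = 0.0123)). Chrnb1, a subunit of the muscle acetylcholine receptor, stood at 8.59 and 12.5 CPM in WT controls, 17.8 and 20.1 in WT laparotomy, 37.1 and 31.5 in KO controls and 10 and 6.81 in KO laparotomy (interaction -2.86), high in KO controls. Ugt1a6a, a glucuronosyltransferase, was low in KO controls alone (4.37 and 4.57 CPM against 10.2 to 24.7 CPM elsewhere), with almost no effect in WT hosts (0.06) and an interaction of 2.22.

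A further 4 genes had opposed effects. Rcn3, a calcium-binding protein of the endoplasmic reticulum, stood at 179 and 149 CPM in WT controls, 114 and 102 in WT laparotomy, 90.2 and 90.9 in KO controls and 174 and 158 in KO laparotomy (interaction 1.48). Atp2b4, a calcium pump of the plasma membrane, stood at 20.7 and 18 CPM in WT controls, 5.84 and 5.54 in WT laparotomy, 5.39 and 8 in KO controls and 29.3 and 17.8 in KO laparotomy (interaction 3.58). Slc39a14, a zinc and iron importer, stood at 255 and 266 CPM in WT controls, 169 and 159.9 in WT laparotomy, 112 and 157 in KO controls and 274 and 246 in KO laparotomy (interaction 1.62). Prl2c2, a proliferin, stood at 50.7 and 57.6 CPM in WT controls, 76 and 84.4 in WT laparotomy, 104 and 113 in KO controls and 58.9 and 49.2 in KO laparotomy (interaction -1.57). Rcn3, Atp2b4 and Slc39a14 were high in WT controls and KO laparotomy and Prl2c2 was low there. Prl2c2, Gstp2 and Ugt1a6a belong to families of near-identical or exon-sharing genes, so how reads were divided within them is uncertain, and the unstranded counts do not part overlapping or antisense genes.

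The level of a gene in cultured MC-38 cells divided the interaction genes. Genes at 10 CPM or more in each control culture made up 8983 of those tested, and 22 positive and 33 negative interaction genes were among them. Genes under 0.5 CPM in all 6 culture libraries were 1981, with 19 positive and 2 negative, and the 3651 genes between held 19 and 4. The median interaction was -0.08 in the first class, 1.68 in the second and 0.27 in those between. In the class under 0.5 CPM the median WT effect was -1.57 and the median KO effect -0.10, so its interaction came mostly from WT hosts. Without WT control replicate 2 the median of that class was 0.77, with the pan-leukocyte level in the fit 0.33, and with the lung epithelium level 0.16. What part RNA of other cells has in these values was not tested further.

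**Figure D5:**
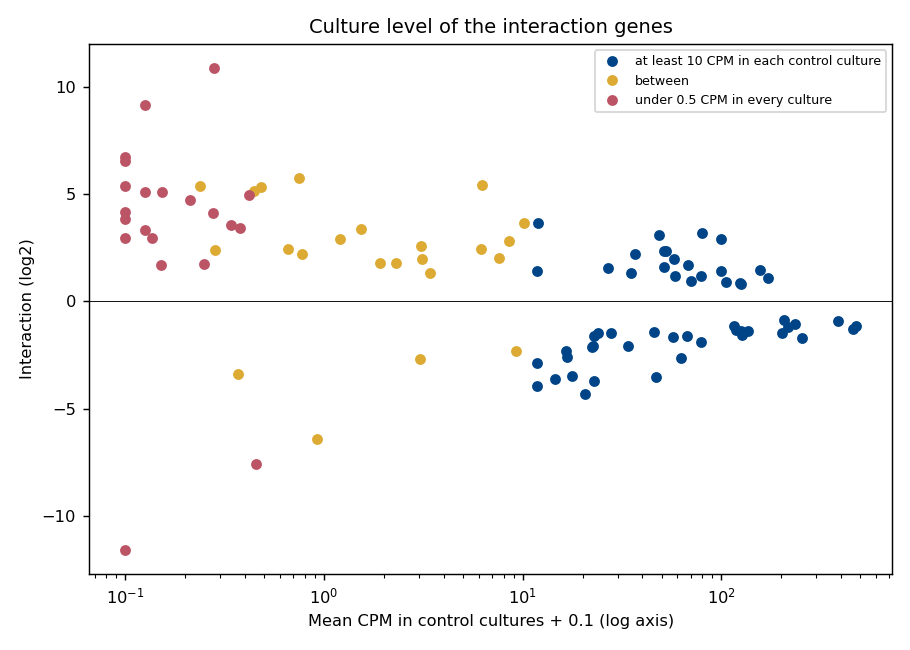
Interaction (log2, vertical) of the 99 genes against their mean level in control cultures (CPM + 0.1, log axis), coloured by culture class. At least 10 CPM in each control culture, 22 genes lie above and 33 below 0; under 0.5 CPM in every culture, 19 lie above and 2 below.

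Negative interactions were rare among genes that the cultured line does not express. Below 0.5 CPM in culture and at 5 CPM or more in tumours, the 6 negative genes with the smallest p did not pass in the main edgeR fit. All of them but Prss35 passed in DESeq2 and in edgeR with all 14 libraries in the fit. Fam169b also passed in edgeR with the strand-specific column. Fam169b had 0.0672 and 1.01 CPM in KO laparotomy and 1.37 to 20.5 CPM elsewhere (interaction -6.97 ± 1.22 (SE; adjusted p = 0.0562)). H19, an imprinted noncoding RNA, stood at 6.76 and 16.7 CPM in WT controls, 28.9 and 18.2 in WT laparotomy, 71.8 and 38.7 in KO controls and 5.38 and 1.96 in KO laparotomy (-4.89 ± 0.88 (SE; adjusted p = 0.0699)). Rag1, the recombinase of lymphocyte receptors, was high in both WT laparotomy libraries (23.8 and 16.5 CPM) and uneven in KO laparotomy (0.269 and 6.54 CPM), with an interaction of -6.10 ± 1.63 (SE; adjusted p = 0.125). Mme, a membrane endopeptidase, had -2.60, Tmem136 -1.93 and Prss35 -1.40 (adjusted p = 0.125, 0.0839 and 0.144).

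The cultures given NET chromatin, which the interaction does not use, gave a second reading of the same genes. There 54.1% of 11753 genes passed, 26.3% higher and 27.8% lower. Of 35 negative interaction genes tested in culture 15 were higher with NET chromatin and 12 lower, and of 34 positive genes 5 were higher and 12 lower. With library totals in place of TMM factors, where the median of all genes was -0.156, these counts were 10 and 14, and 5 and 16. Of the named negative genes, Prl2c2 (1.24), Chrnb1 (1.23), Ogt (0.91), Kdm3a (0.84), Ankrd1 (0.76) and Ikzf2 (0.60) rose most with NET chromatin on the log2 scale. Igf1r fell by 0.53, Zfhx3 by 0.42, Met by 0.28 and Itga3 by 0.27. Of the named positive genes, Mfap3l fell by 1.01, Mitf by 0.72, Igfbp6 by 0.66 and C1ra by 0.64, and Ereg (0.83), Creld2 (0.79), Enpp2 (0.75), Alox5ap (0.73) and Fas (0.55) rose.

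Further lists fixed for cell state had no gene past the interaction test. For interferon response genes both laparotomy libraries were below both controls in 19 of 30 in WT hosts (28.1% of all genes tested) and in 20 of 30 in KO hosts (20.5% of all), and the median interaction was -0.03. There 0 of the 30 passed in edgeR, with 1 at an unadjusted p below 0.05 and 1 called by DESeq2. For oxidative phosphorylation 0 of 30 passed in edgeR (median 0.05; 1 unadjusted, 0 in DESeq2), and for DNA replication and mitosis 0 of 28 (median -0.13; 2 unadjusted, 1 in DESeq2). For heat shock it was 0 of 12 (median 0.08; 1 unadjusted, 0 in DESeq2), for NF-kB inflammation 0 of 28 (median 0.17; 6 unadjusted, 2 in DESeq2) and for MHC class I presentation 0 of 13 (median 0.31; 3 unadjusted, 3 in DESeq2). For NRF2 oxidative stress it was 0 of 16 (median 0.28; 3 unadjusted, 0 in DESeq2), for iron uptake and storage 0 of 12 (median 0.21; 5 unadjusted, 2 in DESeq2) and for epithelial identity 0 of 15 (median 2.79, or 1.5 without WT control replicate 2; 7 unadjusted, 5 in DESeq2). No gene of these 9 lists passed in limma voom. The epithelial genes other than Tjp1 summed to only 5.13 to 49.3 CPM per library. Most single genes carry wide errors with 2 libraries a group, so a list with no gene past the threshold is not shown to respond alike in both hosts.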

How the data were processed

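RNA sequencing of sorted MC-38 tumour cells (8 libraries) and of MC-38 cultures (6 libraries, control or given NET chromatin) was used. The deposited tables hold read counts for each gene symbol. Trimmomatic, STAR and build mm10 (GRCm38) were used, per the submitters' processing notes, with no version, annotation or kit named in the labels. The unstranded count column was taken. Its 4 summary lines, which name no gene, entered neither library sizes nor tests. Over the tumour libraries they held 4.00 to 10.3% unmapped, 6.14 to 7.25% multimapping, 12.1 to 15.3% featureless and 1.38 to 1.51% ambiguous reads. Counting error assumes that reads are independent molecules.

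Tests used edgeR 4.0.16 in R 4.3.3 (filterByExpr by group, TMM, robust glmQLFit, glmQLFTest) with Benjamini-Hochberg adjustment over all genes tested and a threshold of 0.05. The 8 tumour libraries shared one fit with 4 residual degrees of freedom and a common biological coefficient of variation of 0.278. The cultures were fitted apart. Standard errors come from the F statistic. Levels are TMM-scaled CPM without a prior count. Alternatives used DESeq2 1.42.0 and limma 3.58.1 among others. The procedure was tested on simulated counts.

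Lists, named genes and the comparison were chosen with earlier results of these data known. The naming rule took genes at 5 CPM or more on average, without predicted genes. These were the 15 smallest p in each direction and the 6 smallest in each direction among genes expressed and among genes not expressed in culture. It also took Padi4 and the 2 smallest p of each list fixed earlier, at any level. The 6 added lists (complement, epidermal growth factor family, hedgehog, YAP and TEAD targets, receptor tyrosine kinases, prostanoid receptors) and the genes Ereg, Met, Epha2, Igf1r, Axl, Ptgir, C1s1, Cfb, Ogt, Crip1, Ugt1a6a, Ctsk, Col5a2, Itga3, Ero1l, Enpp2, St3gal5, Sfrp1, Mitf, Ntn1, Slc39a14, Col8a1, Ptgs2 and the examples without an interaction test were chosen after their values were seen. Of 33 lists fixed earlier, Igll5 and Trac were not matched. Promoter windows are RefSeq, GRCm38.p6, and gene positions are GENCODE, GRCm38.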

Additional observations from a re-analysis of the deposited data

Results flagged for a closer look

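The laparotomy effect itself differed between WT and KO hosts past the threshold of the interaction test for 34 named genes with positive and 22 with negative values (edgeR, log2 scale, 2 libraries in each of 4 groups). The positive interactions were Sfrp1 9.19, Ptgir 5.75, Ptgs1 5.45, Ctsk 5.09, Has1 4.99, Phyh 4.76, Thy1 4.16, Olfr810 3.87, Mitf 3.65, Atp2b4 3.58, Col5a2 3.45, Cfb 3.37, Enpp2 3.18, Gli1 3.11, Lama4 2.97, Nfatc4 2.93, C1s1 2.92, Alox5ap 2.83, Gstp2 2.61, Ereg 2.44, Mmp19 2.44, Fcgr2b 2.38, C1ra 2.36, Mfap3l 2.35, Ugt1a6a 2.22, Dram1 2.20, Ntn1 2.03, Igfbp6 1.99, Crip1 1.72, Slc39a14 1.62, Rcn3 1.48, Creld2 1.44, Fas 1.40 and Ecscr 1.35. The negative interactions were Slc14a1 -6.42, Ikzf2 -4.31, Col8a1 -3.93, Srgap3 -3.71, Met -3.55, Ankrd1 -3.46, Chrnb1 -2.86, Nexn -2.68, Epha2 -2.62, Hbegf -2.59, St3gal5 -2.31, Itga3 -2.11, Zfhx3 -1.87, Smurf1 -1.71, Igf1r -1.64, Prl2c2 -1.57, Rasal2 -1.45, Myc -1.40, Fnbp1l -1.39, Mllt4 -1.28, Kdm3a -1.18 and Ogt -1.16. All of them kept their sign in each setting run, which their selection in these same libraries favours, and the causes were not tested.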

How the results depend on the processing

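All 99 interaction genes kept their direction under each of the 20 alternatives, and no named value reversed. The 99 were selected in these same libraries, so their kept direction is no separate support. Over named genes and alternatives 344 values fell below the threshold and 24 passed it. The count of 99 genes was 1131 with DESeq2, 399 without the filter on low counts, 65 with limma voom, 1596 with all 14 libraries in the fit and 32 with the pan-leukocyte level as a covariate. Leaving out each library in turn gave 0 to 344 genes. After the data were seen 2 settings were added: the lung epithelium level as a covariate gave 3 genes, and leaving out both control replicates numbered 2 gave 504. The cause of these shifts was not tested. Scaling by RLE factors (109 genes), by library totals (110), the strand-specific column (109) and no robust estimation (88) stayed within 1.5 times of 99. For Padi4, not past the threshold (interaction -2.63), DESeq2 (-2.62), all 14 libraries (-2.55) and the fit without both control replicates numbered 2 (-3.93) passed it; without single libraries its interaction ran from -3.40 to -1.77.

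With a replicate block 56 genes passed, 51 of them among the 99. The labels do not say that a number marks shared animals or batches, and differences between replicates 1 and 2 correlated from -0.13 to 0.40 between groups, so the numbers were not taken as pairs. A fit without one library leaves a group with 1 library, which is assumed to vary like the others. With 2 libraries a group, a gene that does not pass may still differ between hosts.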
